A study of Mus musculus with 4 samples.

Results

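Messenger RNA of 9 genes for the membrane, carbonic anhydrases and receptors of the red cell lineage was measured by sequencing in mouse LSK cells (bone marrow cells sorted without lineage antigens and with Sca-1 and c-Kit, the pool of blood stem cells and early progenitors). The 9 genes, Epor, Tfrc, Car1, Car2, Aqp1, Ermap, Rhd, Slc4a1 and Ank1, were chosen by name from the 46517 genes of the deposited expression table, and all 9 were found there. The cells came from C57BL/6 mice of 8 to 10 weeks that carried either Setd2f/f (wild-type Setd2, 2 libraries) or Setd2D/D (Setd2 knockout, 2 libraries). Setd2 encodes the enzyme that trimethylates lysine 36 of histone H3, and the title of the study names the quiescence of adult blood stem cells and their differentiation as its subject. The sources used here give neither the Cre driver nor the deleted exons, nor whether Setd2f/f mice carried Cre or how many mice made up each library, so that p-values cover the variation among the 4 libraries, possibly technical, and nothing more.

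Red cell precursors arise from LSK cells through progenitors that come to depend on erythropoietin. The hormone binds its receptor Epor and activates the kinase JAK2, and the transferrin receptor Tfrc brings in the iron for heme. Car1 and Car2 interconvert carbon dioxide and bicarbonate, Aqp1 conducts water, and Slc4a1 (band 3) exchanges bicarbonate for chloride. Ank1 (ankyrin) ties band 3 to the spectrin skeleton, Rhd is a protein of the Rh blood group complex, and Ermap is a blood group protein of the butyrophilin type. Epor, Tfrc and Car1 are known from early erythroid progenitors onwards, while band 3 and its ankyrin anchor accumulate in later erythroblasts.

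Promoter sequences are shown for 4 of the 9 genes, because GATA1 and KLF1, the main activators of erythroid genes, bind GATA and CACC-box motifs. RefSeq sequences on GRCm38.p6 matched 5 of the 9 genes (Epor, Aqp1, Tfrc, Ermap and Rhd), and Car1, Car2, Slc4a1 and Ank1 had no entry. The 250 bases before the annotated start were searched on both strands for GATAA and for CCNCNCCC, and overlapping matches each counted. Capitals mark the matched letters (their reverse complement where the match is on the other strand), and each sequence is written 5′ to 3′ on the strand of its gene. Rhd is shown from chr4:134864286-134864535 (plus strand), Epor from chr9:21963577-21963826 (minus strand) and Aqp1 from chr6:55336049-55336298 (plus strand). Ermap is shown from chr4:119190012-119190245 (minus strand), 234 bases, without 16 bases that GENCODE annotates as exon.
Rhd: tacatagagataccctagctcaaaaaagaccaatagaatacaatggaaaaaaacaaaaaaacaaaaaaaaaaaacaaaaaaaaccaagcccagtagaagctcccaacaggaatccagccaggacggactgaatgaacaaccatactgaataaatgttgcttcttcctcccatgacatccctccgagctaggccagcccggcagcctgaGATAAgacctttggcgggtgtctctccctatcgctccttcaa
Epor: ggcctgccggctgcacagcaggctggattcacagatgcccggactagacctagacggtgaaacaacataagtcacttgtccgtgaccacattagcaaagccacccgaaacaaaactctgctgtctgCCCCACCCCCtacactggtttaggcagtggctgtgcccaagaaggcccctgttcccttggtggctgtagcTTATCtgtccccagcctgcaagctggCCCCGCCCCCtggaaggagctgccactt
Ermap: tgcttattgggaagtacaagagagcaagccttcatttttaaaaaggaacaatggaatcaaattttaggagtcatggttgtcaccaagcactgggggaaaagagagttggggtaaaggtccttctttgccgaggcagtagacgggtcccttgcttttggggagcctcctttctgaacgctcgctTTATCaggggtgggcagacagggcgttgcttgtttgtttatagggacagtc
Aqp1: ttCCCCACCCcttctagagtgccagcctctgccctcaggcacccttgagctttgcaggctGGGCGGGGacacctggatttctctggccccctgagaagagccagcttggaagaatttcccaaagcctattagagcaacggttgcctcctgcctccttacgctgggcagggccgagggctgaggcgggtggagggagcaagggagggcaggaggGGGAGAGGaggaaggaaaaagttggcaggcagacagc

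GATAA letters lay in 3 of the 5 windows, against 22.6% of 32851 RefSeq windows of the same length. In Rhd the match lay on the gene's own strand, 42 to 38 bases before the start. In Epor it lay on the other strand, 54 to 50 bases before the start, between 2 clusters of CCNCNCCC matches. In Ermap it lay on the other strand, 67 to 63 bases before the start. CCNCNCCC also lay in 3 of the 5 windows (Epor, Aqp1 and Tfrc), against 45.9% of all windows. Only Epor held both among the 5, against 6.9% of all windows. These matches describe letters and do not show that a factor was bound.

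Setd2 itself was at 78.91 and 68 TPM in Setd2f/f against 43.4 and 49.54 TPM in Setd2D/D, where TPM is transcripts of a gene per 1000000 transcripts, after division by length. The value covers the whole gene, so that transcripts lacking only the deleted part are still counted. The sort genes were present in all 4 libraries, with Kit between 224 and 301 TPM. Ly6a, the gene of Sca-1, was at 127.5 and 123.78 TPM in Setd2f/f against 46.52 and 80.59 TPM in Setd2D/D. By the worth of 1 read at low values, the libraries had relative depths between 0.617 and 1, and Setd2D/D replicate 1 was the shallowest. It correlated at r = 0.91 with each of the other libraries across the tested genes, which are not independent replicates, while the other pairs lay between 0.93 and 0.96. The log2 changes of Tfrc, Rhd and Ermap are also given without Setd2D/D replicate 1 below.

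All 9 genes were higher in both Setd2D/D libraries than in both Setd2f/f libraries. The same held for 16.8% of the 14755 genes tested, and the members had been chosen with earlier results of these data known. The ratio of mean TPM ran from 1.3 for Tfrc to 12.8 for Slc4a1. In limma, fitted to log2(TPM + 1) across all genes with Benjamini-Hochberg adjustment, 0 of the 9 passed an adjusted p of 0.05, against 0.0203% of all genes that passed as higher and 0.0678% in either direction. At an unadjusted p under 0.05, 7 of the 9 were higher, against 4.17% of all genes. A log2 change of at least 1 was reached by 7 of the 9, against 3.86% of all genes. Slc4a1 is in both counts of 7, and was tested only because its Setd2D/D libraries reached 1 TPM. With a filter on a mean TPM of at least 1 instead, added after seeing the data, its unadjusted limma p was 0.0751. The authors' deposited table, from edgeR, placed 6 of the 9 past an FDR of 0.05 as higher in Setd2D/D (Car1, Aqp1, Ermap, Car2, Ank1 and Tfrc), against 1.51% of its 23955 genes. Epor, Rhd and Slc4a1 did not pass there. The median limma log2 change was 1.22 for the 9 genes and -0.06 for all genes tested, and 1.15 without Slc4a1, which passed the filter on low values through its Setd2D/D libraries alone. In bulk samples, more cells of a type and more RNA per cell cannot be told apart.

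**Figure D1:**
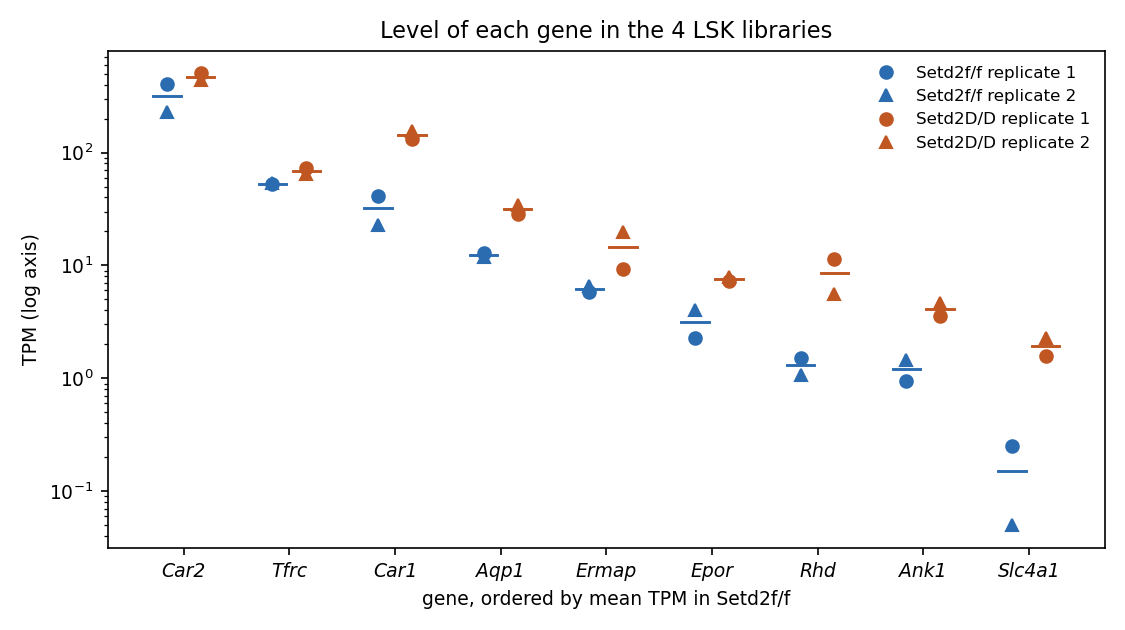
TPM of each gene on a log axis in the 2 Setd2f/f libraries (blue) and the 2 Setd2D/D libraries (orange), with circles for replicate 1, triangles for replicate 2 and bars for the mean of 2. The libraries of the genotypes do not overlap for any of the 9 genes, and the gap is narrowest for Car2 and widest for Slc4a1.

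Of the receptors, Epor stood at a low level and Tfrc at a high one. Epor (ENSMUSG00000006235, GRCm38 chromosome 9, 21958897 to 21963506) was at 2.28 and 4.02 TPM in Setd2f/f against 7.35 and 7.87 TPM in Setd2D/D. The Setd2D/D libraries lay close together, and the lower of them was 1.83 times the higher Setd2f/f library. The mean ratio was 2.42, and the limma log2 change was 1.08 with an SE of 0.34 (adjusted p = 0.407). In the authors' deposited table the log2 change of Epor is 1.31 (FDR 0.294).

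Tfrc (ENSMUSG00000022797, chromosome 16, 32608920 to 32632794) was at 52.29 and 53.49 TPM in Setd2f/f against 73.16 and 64.6 TPM in Setd2D/D. It had the smallest ratio of the 9 genes, 1.3, although its Setd2f/f libraries differed by little (SD 0.849, n = 2). The limma log2 change was 0.37 with an SE of 0.13 (adjusted p = 0.425), with a 95% interval from 0.03 to 0.71. Leaving out Setd2D/D replicate 1 gave 0.28, and leaving out replicate 2 gave 0.46. For Tfrc the authors' deposited table has a log2 change of 0.52 (FDR 0.00612). The ratio of Epor to Tfrc was 0.0436 and 0.0752 in Setd2f/f and 0.1 and 0.122 in Setd2D/D. With 2 libraries against 2, the exact permutation p for a difference in this ratio was 0.33, the smallest that the design allows.

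The carbonic anhydrase genes Car1 and Car2 lie 77.9 kb apart on chromosome 3, with Car3 between them. Car1 (ENSMUSG00000027556, 14766216 to 14808368) was at 41.55 and 22.64 TPM in Setd2f/f against 132.18 and 155.24 TPM in Setd2D/D. The lower Setd2D/D library was 3.18 times the higher Setd2f/f library. Car1 had the smallest limma p of the 9 genes, with a log2 change of 2.19, an SE of 0.31 and an adjusted p of 0.193, and ranked 75th of the genes tested. In the authors' deposited table the log2 change of Car1 is 2.2 (FDR 1.74e-47).

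Car2 (ENSMUSG00000027562, 14886273 to 14900770), the high-activity cytosolic enzyme found in many tissues, was the most abundant of the 9 in every library. It was at 401.41 and 228.46 TPM in Setd2f/f against 502.98 and 439.4 TPM in Setd2D/D. The genotypes were only just apart, since the lower Setd2D/D library was 1.09 times the higher Setd2f/f library. The limma log2 change was 0.63 with an SE of 0.28 (adjusted p = 0.484) and a 95% interval from -0.1 to 1.37. Leaving out Setd2f/f replicate 2 gave 0.23, and leaving out replicate 1 gave 1.04. For Car2 the authors' deposited table has a log2 change of 0.7 (FDR 1.31e-05).

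Car1 transcripts were 0.104 and 0.0991 of Car2 transcripts in the Setd2f/f libraries and 0.263 and 0.353 of them in the Setd2D/D libraries. The Setd2f/f libraries had nearly the same ratio although both genes were higher in replicate 1. The log2 change of Car1 exceeded that of Car2 by 1.55 (exact permutation p = 0.33, the smallest possible). Of the other 14 carbonic anhydrase genes, 8 were tested, 0 passed limma and 0 passed the FDR of the authors' deposited table. Car3 was at 4.65 and 4.04 TPM in Setd2f/f against 14.9 and 5.33 TPM in Setd2D/D. Car12 was at 2.75 and 4.44 TPM in Setd2f/f against 10.35 and 4.56 TPM in Setd2D/D. Summed over the 14 genes the level was 36 and 37.4 TPM in Setd2f/f, 63.8 TPM in Setd2D/D replicate 1 and 36.7 TPM in replicate 2, so that the 1 high sum came from the shallowest library. Car13, which neighbours Car1, was at 6.32 and 5.96 TPM in Setd2f/f against 3.33 and 5.4 TPM in Setd2D/D. Car9, a hypoxia-induced membrane enzyme, was at 16.62 and 17.83 TPM in Setd2f/f against 26.41 and 12.81 TPM in Setd2D/D. Car5b, Car7 and Car15 did not exceed 4.89 TPM in any library.

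The water channel gene Aqp1 was at a level between those of Car1 and Ermap and differed little within each genotype. Aqp1 (ENSMUSG00000004655, chromosome 6, 55336432 to 55348555) was at 12.77 and 11.99 TPM in Setd2f/f against 28.6 and 34.55 TPM in Setd2D/D. The limma log2 change was 1.28 with an SE of 0.19 (adjusted p = 0.204), and with 1 library left out in turn it stayed between 1.15 and 1.41. In the authors' deposited table the log2 change of Aqp1 is 1.4 (FDR 1.4e-11). Of the other 11 aquaporin genes, 8 were listed at 0 in all libraries. Aqp9, a channel for water and glycerol, was at 19.63 and 20.3 TPM in Setd2f/f against 18.77 and 14.51 TPM in Setd2D/D. Aqp7 lay between 0.58 and 2.27 TPM and Aqp11 between 0.88 and 4.2 TPM.

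Aqp1 is also a gene of endothelial cells, so endothelial markers are given beside it. The 9 markers summed to 373 and 406 TPM in Setd2f/f and to 375 and 337 TPM in Setd2D/D, ranges that overlap. The defining gene Cdh5 did not exceed 0.56 TPM, and Lyve1 was listed at 0 in all libraries, while Pecam1, which blood cells also express, lay between 70.7 and 84.6 TPM. Of the 9 markers 1 was higher in the authors' deposited table (Tek) and 1 was lower (Emcn). Tek rose from 4.64 and 4.88 TPM (Setd2f/f) to 15.22 and 12.86 TPM (Setd2D/D). Emcn fell from 42.85 and 24.33 TPM (Setd2f/f) to 5.68 and 11.7 TPM (Setd2D/D). Their log2 changes in that table are 1.42 (FDR 7.46e-07) and -1.73 (FDR 2.5e-07). Egfl7 made up the largest part of each sum, with 214.59 and 273.81 TPM (Setd2f/f) against 235.26 and 213.31 TPM (Setd2D/D). Whether the sum measures endothelial cells was not tested.

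**Figure D2:**
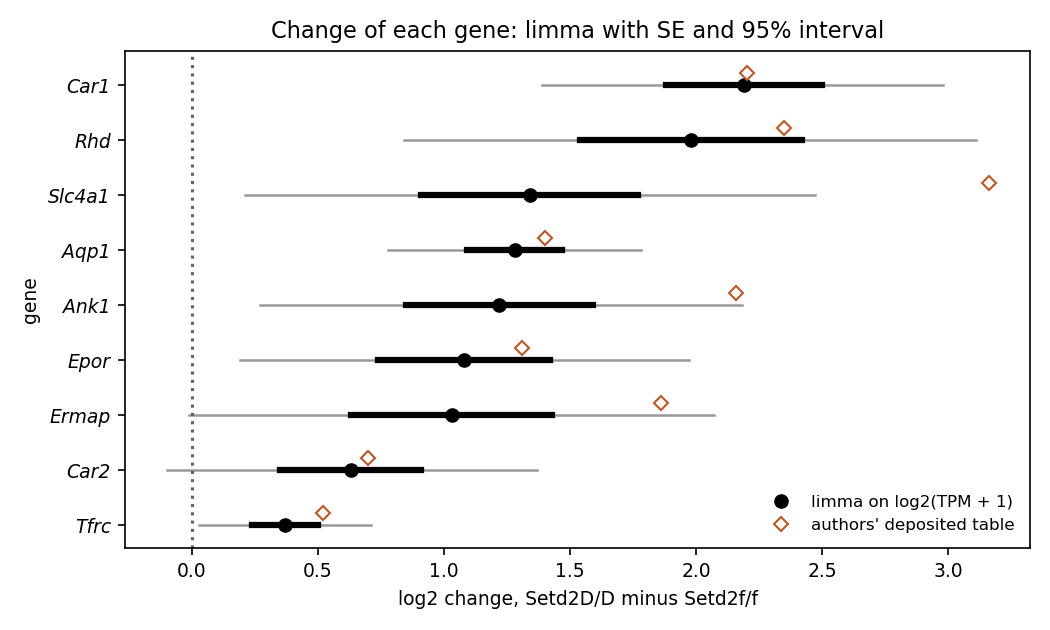
Limma log2 change of each gene (dots) with 1 SE (thick bars) and 95% intervals (thin bars), and the log2 change of the authors' deposited table (diamonds, no error given). The intervals of Car2 and Ermap reach below 0, and the tables lie farthest apart for Slc4a1.

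The blood group genes Rhd and Ermap were higher in Setd2D/D, and each differed between the Setd2D/D libraries. Rhd (ENSMUSG00000028825, chromosome 4, 134864536 to 134896172), the mouse counterpart of the human Rh antigen genes, was at 1.52 and 1.08 TPM in Setd2f/f against 11.45 and 5.54 TPM in Setd2D/D. The ratio of means was 6.53, and replicate 1 was the higher Setd2D/D library. The limma log2 change was 1.98 with an SE of 0.44 (adjusted p = 0.32). Leaving out Setd2D/D replicate 1 gave 1.51, and leaving out replicate 2 gave 2.44. For Rhd the authors' deposited table has a log2 change of 2.35 (FDR 0.117).

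Ermap (ENSMUSG00000028644, chromosome 4, 119175457 to 119190011) was at 5.83 and 6.55 TPM in Setd2f/f against 9.35 and 19.78 TPM in Setd2D/D. Here replicate 2 was the higher Setd2D/D library, the reverse of Rhd. The limma log2 change was 1.03 with an SE of 0.4 (adjusted p = 0.449) and a 95% interval from -0.01 to 2.07. Leaving out Setd2D/D replicate 2 gave 0.53, and leaving out replicate 1 gave 1.53. In the authors' deposited table the log2 change of Ermap is 1.86 (FDR 8.99e-11). Its ratio there is 3.63, against a ratio of mean TPM of 2.35, so the sources differ, and the cause was not tested. Rhag, which encodes the partner of Rhd in the Rh complex, was at 2.5 and 1.78 TPM in Setd2f/f against 7.93 and 13.19 TPM in Setd2D/D, and the authors' deposited table places it past its threshold (log2 change 2.36, FDR 1.73e-05).

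The band 3 gene Slc4a1 and its anchor Ank1 were the least abundant of the 9 genes in Setd2D/D. Ank1 (ENSMUSG00000031543, chromosome 8, 22974844 to 23150497) was at 0.95 and 1.45 TPM in Setd2f/f against 3.59 and 4.67 TPM in Setd2D/D. The ratio of means was 3.44, and the limma log2 change was 1.22 with an SE of 0.37 (adjusted p = 0.397). For Ank1 the authors' deposited table has a log2 change of 2.16 (FDR 0.000126). Ank1 overlaps 5 other annotated genes. The antisense model Gm15816 among them lay between 0 and 0.76 TPM, and Mir486, a microRNA within Ank1, was listed at 0. The sources used here do not say whether strand was kept, and without strand reads of Ank1 and its antisense model cannot be told apart.

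Slc4a1 (ENSMUSG00000006574, chromosome 11, 102348824 to 102366203) was at 0.25 and 0.05 TPM in Setd2f/f against 1.57 and 2.28 TPM in Setd2D/D. It had the largest ratio of means of the 9 genes, 12.8, at the lowest level of the 9, so few reads stand behind it. The limma log2 change of 1.34 (SE 0.43, adjusted p = 0.415) is held down by the pseudocount of 1, and was 1.9 with a pseudocount of 0.5 and 3.12 with a pseudocount of 0.1. For Slc4a1 the authors' deposited table has a log2 change of 3.16 (FDR 0.149) and a mean log2 CPM of 1.16, the lowest of the 9 genes. Among 15 genes listed as paralogs of Ank1, Slc4a1, Rhd and Tfrc, 6 were tested and 0 passed limma. Of 12 in the authors' deposited table, 1 (Slc4a10, below the filter) was higher, against 1.51% of its genes. These 15 leave out Rhag, a relative of Rhd that was higher in that table, and Tfr2, which are counted in other lists. The anion exchanger Slc4a2, found in most cells, was at 40.72 and 33.88 TPM in Setd2f/f against 46.43 and 31.91 TPM in Setd2D/D, so that it exceeded Slc4a1 in every library. Slc4a7, a bicarbonate transporter, lay between 14.8 and 17.4 TPM, Slc4a8 between 3.66 and 9.55 TPM and Slc4a3 between 1.1 and 2.42 TPM. Slc4a1ap, counted among the 15 by its name although it is no transporter, lay between 30.3 and 50.9 TPM. Ank2 was at 0.4 and 0.12 TPM in Setd2f/f against 1.59 and 2.71 TPM in Setd2D/D.

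The order of the levels was nearly the same in the genotypes. TPM is per length, so levels can be set side by side between genes. In Setd2f/f the means ran from Car2 at 315 TPM through Tfrc (52.9), Car1 (32.1), Aqp1 (12.4), Ermap (6.19), Epor (3.15), Rhd (1.3) and Ank1 (1.2) to Slc4a1 at 0.15 TPM. Of these neighbours only Rhd and Ank1 overlapped between libraries. In Setd2D/D Car1 (144 TPM) stood above Tfrc (68.9 TPM) in both libraries, the reverse of both Setd2f/f libraries. Rhd (8.49 TPM) overlapped there with Ermap (14.6 TPM) and with Epor (7.61 TPM). Among the genes tested, Car1 stood at TPM percentiles 69.6 and 54.3 with Setd2f/f and 92.4 and 93.9 with Setd2D/D. Epor stood at percentiles 14.3 and 22 in Setd2f/f and at percentiles 30.7 and 31.9 in Setd2D/D.

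Genes of other red cell membrane and skeleton proteins were split around 0. Of 34 listed genes 32 were matched and 26 tested. Of these, 13 had a log2 change above 0, against 6217 of all 14755 genes tested, and the median was 0.04. By limma 0 of the 26 passed, and of the 32 in the authors' deposited table, 6 were higher (Add2, Rhag, Tspo2, Slc14a1, Stom and Art4) and 0 lower. The shares over all its genes were 1.51% higher and 1.64% lower. The libraries did not overlap for 9 higher and 7 lower genes of the 26, against 16.8% and 27.6% of all genes tested. Add2, an adducin subunit of the red cell skeleton, was at 1.68 and 1.93 TPM in Setd2f/f against 8.01 and 9.1 TPM in Setd2D/D (limma log2 change 1.77, SE 0.3, adjusted p = 0.242). Tspo2, an erythroid membrane protein, was at 1.02 and 3.56 TPM in Setd2f/f against 14.49 and 14.7 TPM in Setd2D/D. The other adducin subunits of the list, Add1 and Add3, had log2 changes of -0.09 and -0.04.

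Genes that act with Epor inside the cell mostly lay near or below 0. Of 23 listed genes 21 were tested, 5 of these above 0, against 6217 of all 14755 genes tested. The median log2 change of the 21 was -0.1, and 0 passed limma. The libraries did not overlap for 3 higher and 10 lower genes of the 21, against 16.8% and 27.6% of all genes tested. Of 22 in the authors' deposited table, 1 was higher (Stat5a) and 2 were lower (Socs2 and Plcg1), against 1.51% and 1.64% of its genes. Stat5a, a transcription factor activated by JAK2, was at 53.44 and 60.52 TPM in Setd2f/f against 80.48 and 78.83 TPM in Setd2D/D (log2 change 0.49, FDR 0.0108 in the authors' deposited table). Socs2, a feedback inhibitor of cytokine receptors, was at 14.97 and 21.04 TPM in Setd2f/f against 5.86 and 8.01 TPM in Setd2D/D (log2 change -1.52, FDR 0.0013 in the authors' deposited table). Plcg1, a phospholipase downstream of receptors, was at 89.49 and 74.44 TPM in Setd2f/f against 58.86 and 43.27 TPM in Setd2D/D. Jak2 itself lay between 26 and 36 TPM with overlapping genotypes, and Epo, the ligand, was listed at 0 in all libraries.

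Genes that handle iron after Tfrc had log2 changes between -0.28 and 0.72. Of 21 listed genes 18 were tested, 5 of these above 0, against 6217 of all 14755 genes tested. Of the 18, 0 passed limma or the FDR of the authors' deposited table. The median log2 change was -0.05. The libraries did not overlap for 3 higher and 3 lower genes of the 18, against 16.8% and 27.6% of all genes tested. Slc40a1, the iron exporter, was at 6.06 and 6.39 TPM in Setd2f/f against 10.07 and 11.77 TPM in Setd2D/D. Slc11a2, which carries iron out of the endosome, was at 20.26 and 13.64 TPM in Setd2f/f against 23.56 and 24.18 TPM in Setd2D/D. Slc25a28, a mitochondrial iron carrier, was at 35.64 and 34.28 TPM in Setd2f/f against 29.19 and 28 TPM in Setd2D/D. Tfr2, the other transferrin receptor, which is known to associate with Epor, was more abundant than Tfrc, between 85.5 and 107 TPM in all libraries.

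**Figure D3:**
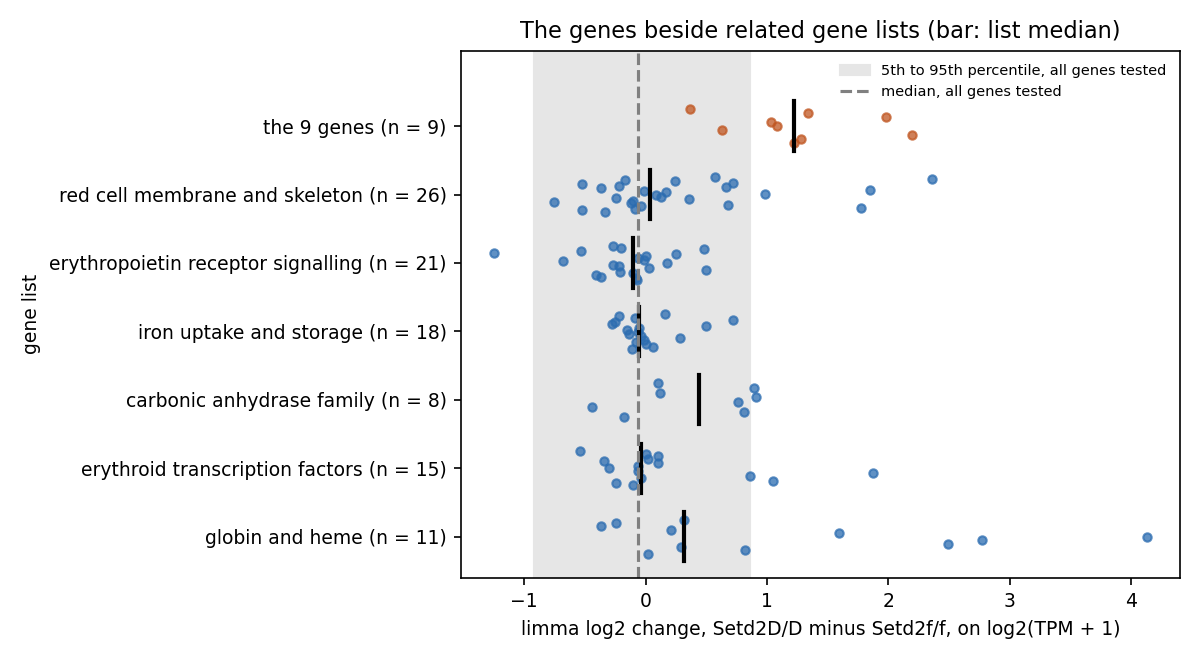
Limma log2 change on log2(TPM + 1) of the 9 genes (orange) and of the tested genes of 6 related lists (blue), with black bars at list medians, a dashed line at the median of all genes tested (-0.06) and grey from their 5th to 95th percentile (-0.92 to 0.86). Of the 9 genes 7 lie beyond the grey band, among them Slc4a1, which was tested through its Setd2D/D libraries alone. Most genes of the membrane, signalling and iron lists lie inside the band.

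Of the transcription factors that control these genes, Klf1 was at 4.55 and 4.6 TPM in Setd2f/f against 19.11 and 19.73 TPM in Setd2D/D, and Gata1 at 10.9 and 9.44 TPM and at 26.18 and 18.72 TPM. These were the only 2 of 15 listed factors past the FDR of the authors' deposited table (5.79e-06 and 0.0114). Its shares over all genes were 1.51% higher and 1.64% lower, and by limma 0 of the 15 passed. Zfpm1, the cofactor of GATA1, was lower by TPM in both Setd2D/D libraries, with 114.27 and 110.39 TPM in Setd2f/f against 70.04 and 84.05 TPM in Setd2D/D (limma log2 change -0.54, adjusted p = 0.342). The authors' deposited table shows almost no change of Zfpm1 (log2 change -0.02, FDR 0.984), so the sources differ. Gfi1b, a repressor needed by erythroid and megakaryocyte cells, was higher by TPM in both Setd2D/D libraries, with a limma log2 change of 0.86 (adjusted p = 0.355). Its log2 change in the authors' deposited table is 0.51 (FDR 0.267). The libraries did not overlap for 4 higher and 5 lower factors of the 15, against 16.8% and 27.6% of all genes tested. The median log2 change of the 15 was -0.04. Tal1, Lmo2 and Ldb1, which form a complex with GATA1, had limma log2 changes of 0.1, -0.3 and -0.06.

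Globin genes, which reach their peak in late erythroblasts, and genes of heme synthesis are given beside the 9 genes. Of 15 listed genes 12 were matched and 11 tested. Without overlap, 7 of the 11 were higher and 1 lower, against 16.8% and 27.6% of all genes tested. By the authors' deposited table, of the 12, a total of 5 were higher and 0 lower, against 1.51% and 1.64% of its genes. The summed level was 349 and 408 TPM in Setd2f/f and 640 and 572 TPM in Setd2D/D. Hbb-bt was the most abundant globin gene by mean, at 38.59 and 106.15 TPM in Setd2f/f against 220.36 and 171.64 TPM in Setd2D/D. The sum also counts heme enzymes without such a rise, such as Urod. It was at 70.81 and 79.15 TPM in Setd2f/f against 52.99 and 75.75 TPM in Setd2D/D. Hba-a1 was at 3.28 and 6.08 TPM in Setd2f/f against 23.75 and 37.73 TPM in Setd2D/D, and Hbb-bs at 4.2 and 0.56 TPM and at 68.11 and 35.12 TPM, where near-identical copies make the split between globin genes uncertain. Cpox, an enzyme of heme synthesis, was at 20.44 and 19.8 TPM in Setd2f/f against 35.49 and 37.02 TPM in Setd2D/D. Alas2, the erythroid enzyme that starts heme synthesis, was at 1.61 and 0.28 TPM in Setd2f/f against 0 and 0.93 TPM in Setd2D/D, and overlapped. Their part in the levels of the 9 genes was not tested.

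Markers of other cells that bear some of the 9 genes, or that share their progenitors, also differed in level. The 8 megakaryocyte markers summed to 179 and 153 TPM in Setd2f/f and to 141 and 146 TPM in Setd2D/D, with 0 higher and 2 lower (Itga2b among them) in the authors' deposited table. Pf4, platelet factor 4, was at 13.31 and 11.22 TPM in Setd2f/f against 36.72 and 43.16 TPM in Setd2D/D. The 9 mast cell and basophil markers summed to 125 and 121 TPM in Setd2f/f and to 140 and 193 TPM in Setd2D/D, with 3 higher (Cpa3, Gzmb and Cma1) in the authors' deposited table. The 10 macrophage markers, a cell type that surrounds erythroblasts, summed to 86.0 and 86.9 TPM in Setd2f/f and to 137 and 111 TPM in Setd2D/D, with 1 higher in the authors' deposited table. That gene was Cd68, at 26.11 and 33.67 TPM in Setd2f/f and 77.12 and 57.28 TPM in Setd2D/D, while the defining gene Adgre1 did not exceed 2.08 TPM. The 10 granulocyte markers summed to 2530 and 3130 TPM in Setd2f/f and to 3110 and 4790 TPM in Setd2D/D, with 4 higher and 2 lower in the authors' deposited table. The 8 B cell markers summed to 556 and 305 TPM in Setd2f/f and to 177 and 270 TPM in Setd2D/D, with 0 higher and 6 lower in the authors' deposited table. Over all its genes, the authors' deposited table calls 1.51% higher and 1.64% lower. No marker of these 5 lists passed limma, and their part in the levels of the 9 genes was not tested.

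The genes whose pattern over the 4 libraries lay nearest to the mean of the 9 genes were searched among 9979 genes with a mean TPM of at least 5. Distance was taken between values of log2(TPM + 1) centred on each gene's mean. The nearest 5 were Gpc1, Hspa1b, Tgfbr3, Tspan17 and Pde1b, at distances between 0.085 and 0.223. Gpc1, a cell surface proteoglycan, was at 4.18 and 3.61 TPM in Setd2f/f against 10.13 and 10.21 TPM in Setd2D/D. Tgfbr3, a co-receptor for TGF-beta, was at 5.86 and 6.38 TPM in Setd2f/f against 14.82 and 15.01 TPM in Setd2D/D. Of the 9 genes themselves, Aqp1 lay nearest to their mean, at a distance of 0.12, followed by Slc4a1 at 0.22. Car1 and Rhd lay farthest, at 1.08 and 1.05, Car1 mainly through its low value in Setd2f/f replicate 2 and Rhd mainly through its high value in Setd2D/D replicate 1. Over 4 libraries such a likeness follows mainly from the difference between the genotypes.

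**Figure D4:**
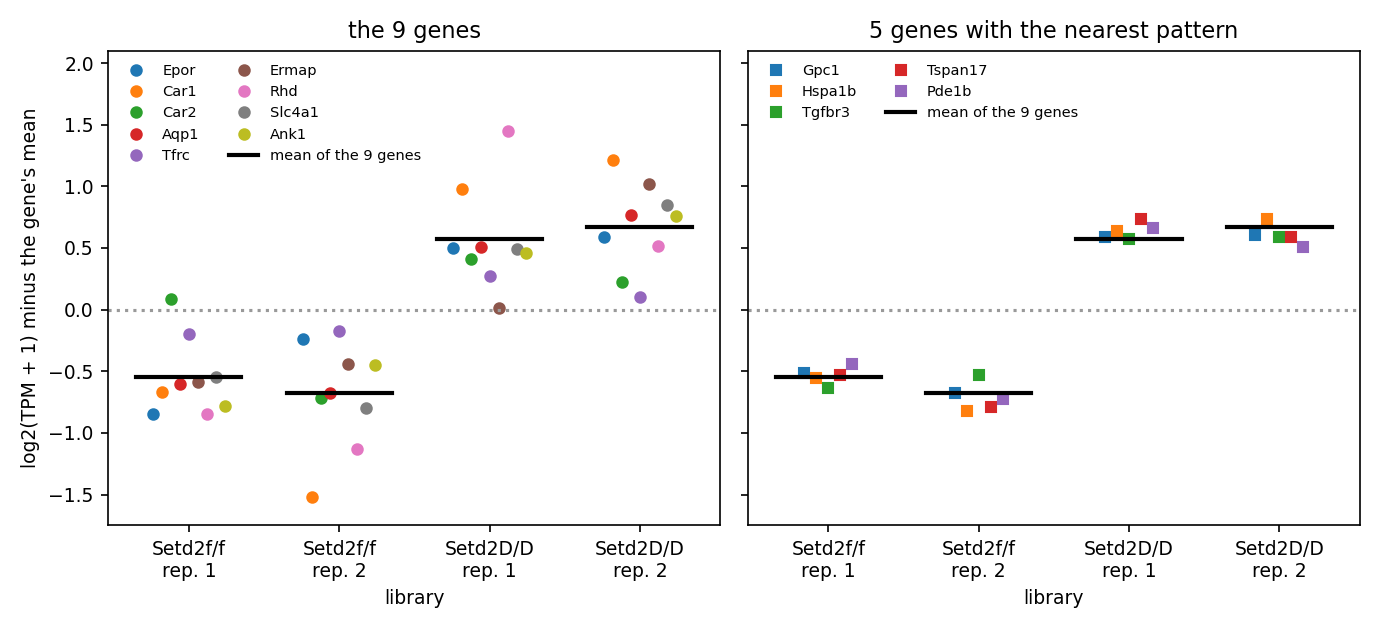
Values of log2(TPM + 1) minus each gene's mean over the 4 libraries, for the 9 genes (left, circles) and the 5 genes nearest in pattern (right, squares), with black bars at the mean of the 9 genes (-0.55, -0.68, 0.57 and 0.67 from left to right). Rhd is highest in Setd2D/D replicate 1, and Car1 and Ermap are highest in replicate 2.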

How the data were processed

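The series holds 4 messenger RNA libraries, 2 of Setd2f/f and 2 of Setd2D/D LSK cells, grouped by their titles. The authors deposited TPM values for 46517 genes, and per the submitters' processing notes cutadapt, RSEM, edgeR and the mm10 build were used, with no roles or versions. The authors' deposited comparison of 23955 genes gives the ratio (fold change) and its log2, mean abundance as log2 CPM, the F statistic (a score), and p-value and FDR columns. Those p-values followed the chi-square tail of the F (median ratio 1), which allows little for uncertainty in the variance. Names split by a comma were rejoined in 5 and 2 lines. TPM keeps no read totals, so relative depth was taken from the lowest values of genes with 1 transcript.

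A gene was tested if 2 or more libraries reached 1 TPM (14755 genes). Its values were transformed to log2(TPM + 1), since counts were not analysed here, and fitted with limma 3.58.1 in R 4.3.3, with moderated variance and an abundance trend, 2-sided. The procedure was first run on simulated data to check that planted changes were recovered. Those changes lay only in genes of higher level, with less noise than between the Setd2f/f libraries. The simulation therefore does not vouch for the p-values or for low genes. Fold changes on the log2(TPM + 1) scale understate the change of low genes. With 2 against 2 libraries an exact permutation p cannot go below 0.33.

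The 9 genes, the lists and the rules were chosen with earlier results of these data known. Genes to be named were all 9, up to 3 per list with the smallest p and mean TPM of at least 1, family members at that level, marker genes and the 5 nearest patterns, though not all from the marker lists are printed. Values for Add1, Add3, Jak2, Gfi1b, Tal1, Lmo2, Ldb1 and other genes outside this rule were chosen after they were seen. Coordinates are from GENCODE M21 on GRCm38, which is mm10. Alternatives changed the pseudocount (0.1, 0.5), filter, scaling, moderation, replicate block and libraries used. Figures were drawn with matplotlib 3.10.9.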

Additional observations from a re-analysis of the deposited data

How the results depend on the processing

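All 133 values of the 9 genes under 15 alternatives kept their direction. Since the genotypes did not overlap for any of the 9 genes, only alternatives that rescaled the libraries could have reversed one. By limma 0 values passed an adjusted p of 0.05, the lowest being 0.143 for Car1 with robust moderation. Slc4a1 and Ank1 gave no value under the filter at TPM 5. The median log2 change of the 9 genes lay between 1.06 and 1.41 with 1 library left out and was 1.15 without Slc4a1 (added after seeing the data) and 1.08 under the filter at TPM 5. With 1 library left out, the lone library of its group was assumed to vary like the other pair. The log2 change of Slc4a1 ran from 1.17 to 3.12 over the alternatives and depended most on the pseudocount. Over all genes, limma placed 10 past the threshold, but 3 with a pseudocount of 0.1, 0 with no filter, 19 with no trend and 0 when any 1 library was left out, and the cause was not tested. At an unadjusted p under 0.05 these were 1647 genes, 2035 with no filter and 554 to 2928 with 1 library left out. With the replicate number as a block 0 genes passed by limma (1508 at an unadjusted p under 0.05), and 0 of the 9. Same-numbered libraries' deviations from their group means correlated at r = 0.041, so the numbers were not taken as pairs. Depth limits Slc4a1 most, whose lowest library was at 0.05 TPM.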

Other observations

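Among the paralogs of Ank1, Slc4a1, Rhd and Tfrc that were below the filter, 2 were above 0 with Setd2D/D alone and 2 with Setd2f/f alone. Ank3, the ankyrin of epithelia and neurons, had listed values of 0 with Setd2f/f and of 0.13 and 0.43 TPM with Setd2D/D. Slc4a10, a bicarbonate transporter best known from the brain, had listed values of 0 with Setd2f/f and of 0.72 and 0.16 TPM with Setd2D/D, with an FDR of 0.0491 in the authors' deposited table. In the other direction, Slc4a4 was at 0.05 and 0 TPM and Slc4a11 at 0 and 0.19 TPM with Setd2f/f, and both were listed at 0 with Setd2D/D. Of the carbonic anhydrase family, Car5a and Car10 were likewise above 0 in 1 Setd2f/f library each (0.09 and 0.2 TPM) and listed at 0 with Setd2D/D. These levels rest on few reads and were chosen after they were seen.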
